A study of Homo sapiens with 6 samples.

Results

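The genes described here take heme apart and move or store its iron. The set names 10 genes, chosen by name with earlier results of these data known. They are the heme oxygenases HMOX1 and HMOX2, the biliverdin reductases BLVRA and BLVRB, the ferritin subunits FTH1 and FTL, the iron carriers SLC40A1, TFRC and SLC11A2, and PIR. A row was found for 9 of the 10 among the 25349 genes of the count table, and all 9 passed the filter on low counts. SLC40A1, the iron exporter ferroportin, had no row under its symbol and is not analysed here. The counts come from SCC-9, a long established human line grown from a squamous carcinoma of the tongue. In the siE7 group these cells received an siRNA that targets exon 7 of MKI67, which encodes the proliferation protein Ki67, and in the siNC group a nonspecific siRNA. The siRNA was given at 10 nM with Lipofectamine on day 0 and again on day 2, and RNA was taken on day 4, with 3 libraries per group. Cells of both groups grew in medium with serum and hydrocortisone. The methods list 3 siRNAs against exon 7 without naming the one used here, and the labels do not say whether the replicates were separate cultures. The p-values therefore measure the spread between these libraries, which may be technical.

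Heme oxygenase opens the heme ring and releases ferrous iron, carbon monoxide and biliverdin, and biliverdin reductase turns biliverdin into bilirubin. HMOX1 is the inducible oxygenase, a target of the transcription factor NRF2 that BACH1 represses, and HMOX2 is the constitutive one. Iron that a cell does not use at once is kept in ferritin, a shell of heavy (FTH1) and light (FTL) chains. Iron enters through the transferrin receptor (TFRC) and the divalent metal transporter (SLC11A2). Much of this control lies after transcription: the iron regulatory proteins bind a hairpin in the mRNA, the iron-responsive element, which blocks translation from a 5′ UTR and protects the mRNA from decay from a 3′ UTR.

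The members were searched for sequences that could form such hairpins, a layer of control that counts of mRNA do not measure for ferritin. The UTRs of the GENCODE v44 transcripts (GRCh38) were searched for a stem with an unpaired C, 5 paired bases and the loop CAGTGN, where the last base is not G. Among the 9 genes, such a sequence was found in the 5′ UTR of FTH1 and of FTL, once each, and 4 times in the 3′ UTR of TFRC. Each is printed 5′ to 3′ on the strand of its gene, with the loop in capitals.
FTH1 5′ UTR, chr11:61967574-61967602, minus strand: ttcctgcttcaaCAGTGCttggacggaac
FTL 5′ UTR, chr19:48965335-48965363, plus strand: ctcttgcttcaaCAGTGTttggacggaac
TFRC 3′ UTR, chr3:196050979-196051007, minus strand: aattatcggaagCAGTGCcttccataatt
TFRC 3′ UTR, chr3:196050575-196050603, minus strand: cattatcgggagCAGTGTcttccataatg
TFRC 3′ UTR, chr3:196050510-196050538, minus strand: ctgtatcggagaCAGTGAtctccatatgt
TFRC 3′ UTR, chr3:196050463-196050491, minus strand: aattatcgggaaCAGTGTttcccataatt
The same pattern occurred in the 5′ UTR of 29 (0.147%) and in the 3′ UTR of 113 (0.574%) of 19676 protein-coding genes. A match describes the letters and does not show that a protein binds there. No match says only that this strict pattern is absent, since hairpins with an unpaired base in the upper stem would be missed.

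The libraries held 25608192 to 29550264 counts on genes. MKI67, the targeted gene, had 1072, 1029 and 1077 CPM (counts scaled to library size with TMM factors) with siNC and 112, 125 and 108 CPM with siE7, a log2 fold change of -3.21 (SE 0.114, adjusted p = 6.71e-08). Along the second principal component, which held 19.8% of the variance, siE7 replicate 1 stood at -39.6 and the other siE7 libraries at 16.5 and 17.8. All 8 squamous epithelial markers had a row and their summed level was 23251 to 24767 CPM with siNC and 21319 to 27804 CPM with siE7. Singly, 1 of them was called higher and 4 lower, of which 1 was a DEG, and their median log2 fold change was -0.29. Of 6 macrophage markers 4 had a row, with a sum of 7.70 to 7.89 CPM with siNC and 3.77 to 6.95 CPM with siE7. The 6 fibroblast and endothelial markers summed to 16.7 to 19.8 CPM with siNC and 18.1 to 24.1 CPM with siE7, and none of 5 erythroid markers had a row. The part of these markers in the results was not tested. Lower counts from fewer cells of a type and from less RNA per cell cannot be told apart in these libraries.

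With siE7, 4 of the 9 genes rose (PIR, HMOX1, BLVRB and FTH1), HMOX2 fell, and 4 (BLVRA, FTL, TFRC and SLC11A2) did not pass the test. The test was edgeR's quasi-likelihood F-test with p-values adjusted over all 14661 tested genes. Of all tested genes 18.0% were called higher and 16.0% lower, so many genes of any kind were called. HMOX1 and PIR were also DEGs, genes with an adjusted p under 0.05 and a log2 fold change beyond 1, against 7.38% of all tested genes for DEGs higher and 4.84% for DEGs lower. HMOX1 and PIR also passed when the fold change itself was tested against the DEG threshold (adjusted p = 0.00227 and 0.000441). For 5 of the 9 genes all siE7 libraries lay on 1 side of all siNC libraries, as they did for 47.6% of all tested genes. The median log2 fold change was 0.18 over the 9 genes and 0.08 over all tested genes. Without siNC replicate 3 the number of members called was 3, since BLVRB and FTH1 no longer passed.

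**Figure D1:**
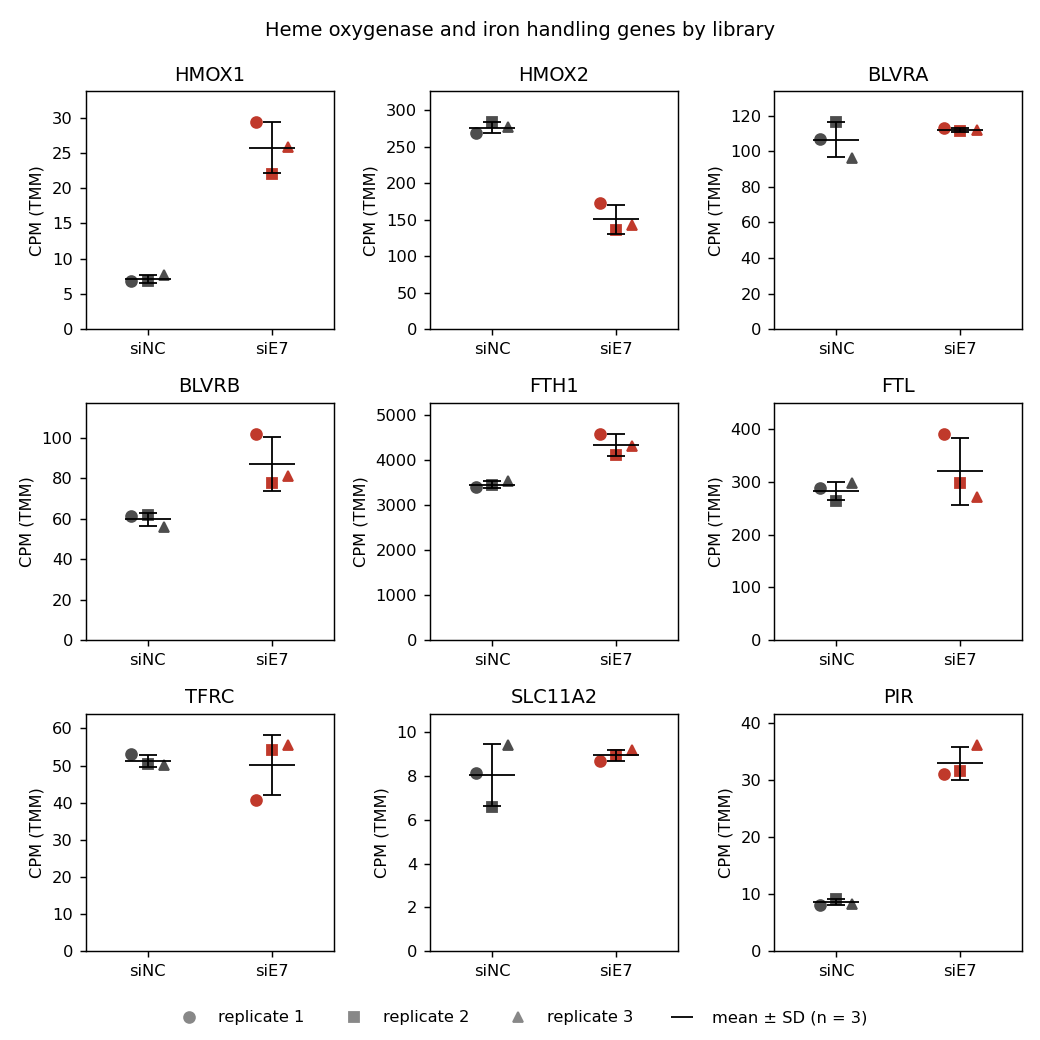
Level of each of the 9 genes in CPM (linear axes from 0) by library, with siNC in grey and siE7 in red, a symbol for each replicate number, and the mean ± SD of 3 libraries in black. HMOX1 and PIR stand clear of siNC in every siE7 library, and HMOX2 lies below it. Among the siE7 libraries, replicate 1 is the highest for HMOX1, HMOX2, BLVRA, BLVRB, FTH1 and FTL and the lowest for TFRC, SLC11A2 and PIR.

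The heme oxygenases moved in opposite directions. HMOX1 (ENSG00000100292.18, chr22:35380361-35394214, plus strand) stood at 6.76, 6.85 and 7.73 CPM in the siNC libraries and at 29.3, 22.1 and 25.8 CPM in the siE7 libraries. Every siE7 library lay above every siNC library. The mean rose from 7.11 ± 0.533 to 25.7 ± 3.63 CPM (SD, n = 3), which is 3.62-fold, with a log2 fold change of 1.85 (SE 0.160, 95% interval 1.50 to 2.21, adjusted p = 1.32e-05). Behind these levels were 167 to 204 counts per library with siNC and 609 to 869 with siE7.

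HMOX2 (ENSG00000103415.12, chr16:4474690-4510347, plus strand) stood at 268.6, 283 and 277 CPM with siNC and at 173, 136 and 143 CPM with siE7. The groups did not overlap, and siE7 replicate 1 was the highest of the siE7 libraries. The mean was 276 ± 7.32 CPM with siNC and 150.5 ± 19.9 CPM with siE7 (SD, n = 3), and the log2 fold change was -0.88 (SE 0.119, 95% interval -1.14 to -0.62, adjusted p = 0.000274). Without siE7 replicate 1 it was -1.05, past the DEG threshold, so that 3 members were then DEGs. Exons of HMOX2 share 103 bases with exons of NMRAL1 on the other strand, which had 1977 to 2786 counts per library. Whether the counting used the strand is not given in the sources used here.

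The ratio of HMOX1 to HMOX2 within a library does not depend on the scaling between libraries. Its log2 value was -5.31, -5.37 and -5.16 with siNC and -2.56, -2.62 and -2.47 with siE7. The groups lay far apart and siE7 replicate 1 was not set apart in this ratio. The difference was 2.73 on the log2 scale (exact two-sided permutation p = 0.1, the smallest that 3 against 3 libraries allow, adjusted over 3 ratios 0.15). Scaled to transcript length (RPKM), HMOX1 made up 2.64%, 2.54% and 2.92% of the summed level of both oxygenases with siNC, and 15.4%, 14.9% and 16.3% with siE7. HMOX2 was therefore still the larger part in every library. The summed level of both was 170 ± 4.44 RPKM with siNC and 107 ± 14.1 RPKM with siE7 (SD, n = 3).

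Of the biliverdin reductases, BLVRB rose and BLVRA did not pass the test. BLVRB (chr19:40447765-40465764, minus strand), which reduces biliverdin and flavins with NADPH, stood at 61.2, 61.7 and 56.2 CPM with siNC and at 102, 77.5 and 81.0 CPM with siE7. All siE7 libraries were above the siNC libraries, with siE7 replicate 1 the highest. The mean was 59.7 ± 3.06 CPM and 86.9 ± 13.3 CPM (SD, n = 3), 1.46-fold, with a log2 fold change of 0.54 (SE 0.129, 95% interval 0.26 to 0.82, adjusted p = 0.00774). It was 0.35 without siE7 replicate 1 (adjusted p = 2.03e-05) and 0.49 without siNC replicate 3 (adjusted p = 0.0592), where the call was lost.

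BLVRA (chr7:43758680-43807342, plus strand), the main reductase of adult tissue, stood at 107, 116 and 96.5 CPM with siNC and at 113, 111 and 112 CPM with siE7. The siE7 values lay inside the range of the siNC values. The log2 fold change was 0.07 (SE 0.111, 95% interval -0.17 to 0.32, adjusted p = 0.631). Within libraries the log2 ratio of BLVRA to BLVRB was 0.806, 0.914 and 0.780 with siNC and 0.152, 0.522 and 0.467 with siE7. The groups did not overlap, and the difference of -0.45 had an exact two-sided permutation p = 0.1 (adjusted 0.15). BLVRB made up 43.0 ± 1.21% of the summed RPKM of both reductases with siNC and 50.8 ± 3.46% with siE7 (SD, n = 3).

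FTH1, the ferritin chain that oxidises iron for storage, was the most abundant member per transcript length in all libraries. FTH1 (chr11:61959718-61967634, minus strand) stood at 3404, 3444 and 3539 CPM with siNC and at 4596, 4119 and 4311 CPM with siE7. The groups did not overlap. The mean was 3462 ± 69.3 CPM and 4342 ± 240.0 CPM (SD, n = 3), 1.25-fold, with a log2 fold change of 0.33 (SE 0.1002, 95% interval 0.11 to 0.55, adjusted p = 0.0262). This call was lost under 8 of 15 alternatives, among them DESeq2 (adjusted p = 0.0784), the fits without any one of the siNC libraries (0.124, 0.119 and 0.103 without replicates 1, 2 and 3) and the fit without siE7 replicate 2 (0.0526). Exons of BEST1 on the other strand share 1267 bases with exons of FTH1. BEST1 had 90 to 212 counts per library against 84038 to 136237 for FTH1.

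FTL (chr19:48965309-48966879, plus strand), the chain that aids mineral formation in the shell, stood at 287, 263 and 297 CPM with siNC and at 391, 297 and 271 CPM with siE7. The groups overlapped, with siE7 replicate 1 well above the siNC libraries, replicate 2 level with the highest of them and replicate 3 inside their range. The log2 fold change of 0.18 (SE 0.140, 95% interval -0.13 to 0.49, adjusted p = 0.345) did not pass the test and was -0.05 without that library. It passed without TMM scaling (0.34, adjusted p = 0.0420). The log2 ratio of FTH1 to FTL was 3.57, 3.71 and 3.58 with siNC and 3.55, 3.79 and 3.99 with siE7. The groups overlapped, with a difference of 0.16 (exact two-sided permutation p = 0.4, adjusted 0.4). Ferritin genes have near-identical processed copies, to which reads can be assigned. The table held 12 rows of FTH1 copies and 4 of FTL copies, whose summed counts were at most 0.165% and 0.137% of the parent gene's in any library. How reads that fit several places were counted is not given in the sources used here. Such reads may have been left out, so these sums do not bound the shared reads.

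Neither gene of iron uptake passed the test. TFRC (chr3:196012511-196082153, minus strand) stood at 53.1, 50.4 and 50.3 CPM with siNC and at 40.8, 54.1 and 55.6 CPM with siE7. The siE7 libraries lay on both sides of the siNC libraries, with siE7 replicate 1 the lowest of all. The log2 fold change was -0.03 (SE 0.136, 95% interval -0.33 to 0.27, adjusted p = 0.881), turned to 0.04 without siE7 replicate 1 and to 0.14 without TMM scaling. SLC11A2 (chr12:50979401-51028566, minus strand) stood at 8.14, 6.61 and 9.43 CPM with siNC and at 8.67, 8.95 and 9.19 CPM with siE7. The groups overlapped and the log2 fold change was 0.15 (SE 0.177, 95% interval -0.24 to 0.54, adjusted p = 0.544). The intervals reach -0.33 for TFRC and 0.54 for SLC11A2, so changes of that size could have gone unseen.

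**Figure D2:**
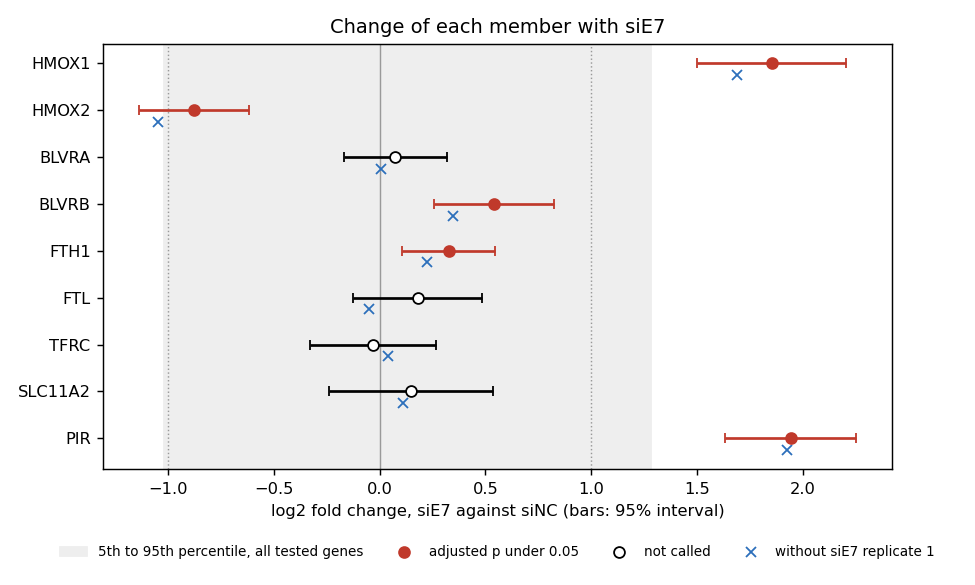
Log2 fold change of each gene with its 95% interval, siE7 against siNC. Red points passed the test, open points did not, blue crosses give the value without siE7 replicate 1, dotted lines mark the DEG threshold of 1 and the grey band runs from the 5th to the 95th percentile of all tested genes (-1.02 to 1.28). HMOX1 (1.85) and PIR (1.94) lie outside the band.

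PIR encodes pirin, an iron-binding nuclear protein known as an NRF2 target, and had the highest log2 fold change of the set. PIR (ENSG00000087842.11, chrX:15384799-15493564, minus strand) stood at 8.18, 9.17 and 8.37 CPM with siNC and at 31.1, 31.7 and 36.3 CPM with siE7. The groups did not overlap and siE7 replicate 1 was close to replicate 2. The mean was 8.57 ± 0.524 CPM and 33.0 ± 2.85 CPM (SD, n = 3), 3.85-fold, with a log2 fold change of 1.94 (SE 0.141, 95% interval 1.64 to 2.25, adjusted p = 4.78e-06). BMX, which overlaps PIR on the other strand, shares no exon base with it. HMOX1 and PIR rose by about the same amount, and their 95% intervals overlap widely.

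NRF2 with a small MAF protein binds the antioxidant response element, so the start regions of the members were searched for its core TGACNNNGC on both strands. The RefSeq start regions (250 bases before to 50 after the start, GRCh38.p14) held 11 entries for 7 of the 9 members. HMOX1 and FTH1 had no entry. The core was found for PIR alone, on the strand opposite to the gene, at bases 27 to 35 counted from 1 at the RefSeq start. That start lies inside the gene span given above, not at its end. The match is shown here because PIR is one of the DEGs. The sequence is printed on the strand of the gene, with the reverse complement of the core in capitals.
PIR, chrX:15493289-15493317, minus strand: gccgcgaagcGCTGAGTCAcggtgaggct
The core occurred in 13.3% of 35116 start regions and the spelling found in PIR in 0.561%. A match describes the letters and does not show that NRF2 binds there. No match in a region says only that these letters are not in that window.

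Scaled to the length of the canonical transcript, the 9 genes spanned a wide range of levels. With siNC the mean levels were 2878 RPKM for FTH1, 324 for FTL, 165 for HMOX2, 99.2 for BLVRA, 74.7 for BLVRB, 10.2 for TFRC, 6.73 for PIR, 4.58 for HMOX1 and 1.95 for SLC11A2. In this order the libraries of neighbouring genes did not overlap at any step. With siE7 the mean levels were 3609 RPKM for FTH1, 367 for FTL, 109 for BLVRB, 104.5 for BLVRA, 90.0 for HMOX2, 25.9 for PIR, 16.6 for HMOX1, 10.0 for TFRC and 2.16 for SLC11A2. Of the neighbours in that order only BLVRB and BLVRA overlapped, and HMOX2 also overlapped BLVRB, since siE7 replicate 1 had 103.5 RPKM of HMOX2 and the BLVRB libraries ran from 97.0 to 128. PIR and HMOX1 thus stood below TFRC with siNC and above it with siE7, and the mean of HMOX2 went from above both reductases to below both.

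**Figure D3:**
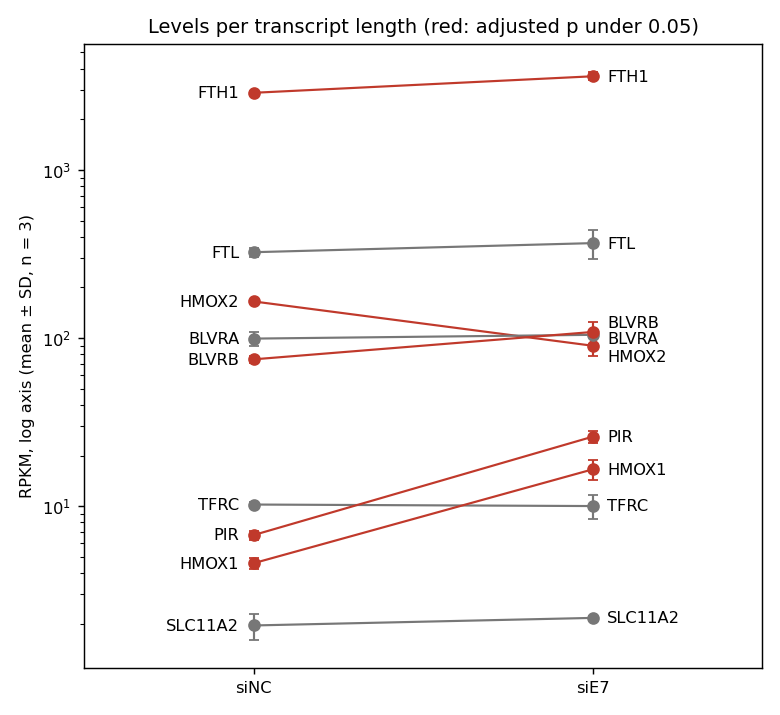
Mean level per transcript length in RPKM (log axis, bars are the SD of 3 libraries) with siNC on the left and siE7 on the right, a line for each gene, red where the test was passed. The lines of PIR and HMOX1 cross that of TFRC, and the line of HMOX2 crosses those of BLVRA and BLVRB.

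**Figure D4:**
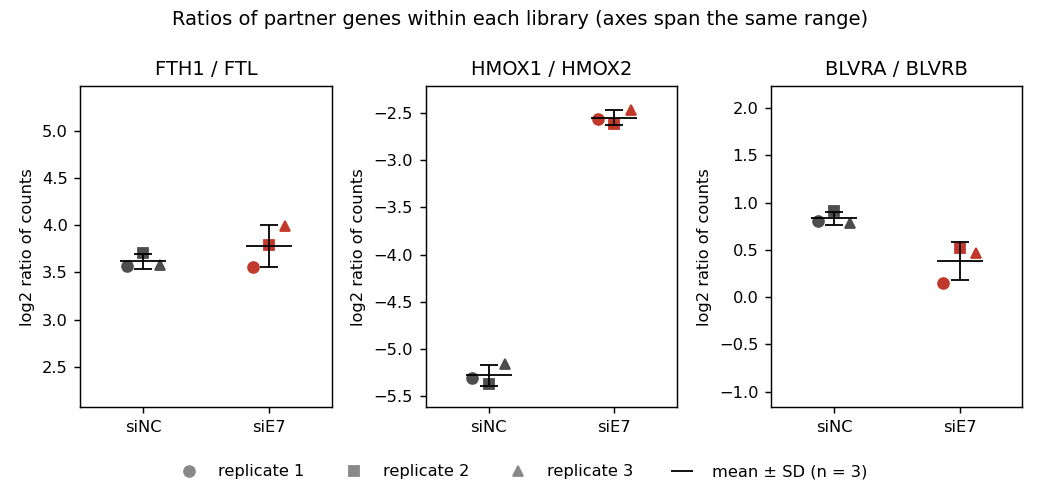
Log2 ratio of counts of partner genes within each library, with the mean ± SD of 3 libraries in black and axes that span the same range. The HMOX1 to HMOX2 ratio differs by 2.73 between the groups, the BLVRA to BLVRB ratio by -0.45, and the FTH1 to FTL libraries overlap.

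Genes of the wider heme and iron lists, which include 8 regulators of HMOX1, were called in both directions. Of 73 further genes in 8 lists, 62 were tested, of which 7 rose, 9 fell and 46 did not pass, with a median log2 fold change of -0.03. For 30 of the 62 the groups did not overlap, as for 47.6% of all tested genes. Together 16 of the 62 were called, a smaller share than over the whole table. There 18.0% were called higher and 16.0% lower (2639 and 2351 of 14661). For the 62 genes the calls varied with the libraries used. The count was 10, 9 and 10 without siNC replicates 1, 2 and 3, 38 without siE7 replicate 1, and 9 and 10 without siE7 replicates 2 and 3. Calls over the whole table moved likewise, to 4343 higher and 4422 lower of 15011 without siE7 replicate 1. Without TMM scaling, which moved the median of all tested genes from 0.08 to 0.25, 11 rose and 6 fell, and under DESeq2 6 rose and 14 fell. Over the whole table that split was 4030 higher and 1632 lower without TMM scaling, and 2223 and 2635 under DESeq2.

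Of the 8 genes of heme synthesis, ALAD, the enzyme that joins aminolevulinic acid to porphobilinogen, fell (29.1 to 17.8 CPM, log2 fold change -0.71, SE 0.126, adjusted p = 0.00141), and the other 7 did not pass. ALAS1, the rate-limiting enzyme outside erythroid cells, had a log2 fold change of 0.24 (adjusted p = 0.176). Of the 8 heme and porphyrin transporters and binders, 3 fell and 1 rose. ABCG2, an exporter of porphyrins and drugs, was a DEG at low counts (2.65 to 0.576 CPM, log2 fold change -2.18, SE 0.313, adjusted p = 0.000376). ABCB6, a porphyrin transporter, rose (log2 fold change 0.75, adjusted p = 0.00441), and the heme-binding HEBP1 fell (log2 fold change -0.53, adjusted p = 0.0146). The call of HEBP1 was lost without siNC replicate 2 (adjusted p = 0.0863) and without siE7 replicate 2 or 3 (0.0509 and 0.0526).

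Of 10 tested genes of iron uptake and reduction 2 fell and none rose. STEAP1, a metalloreductase family member, was a DEG (13.8 to 4.36 CPM, log2 fold change -1.66, SE 0.271, adjusted p = 0.000911). CYBRD1, the ferric reductase that serves SLC11A2, fell as well (5.79 to 2.90 CPM, log2 fold change -0.996, adjusted p = 0.00391). The siderophore carrier LCN2 had a log2 fold change of -0.28 (adjusted p = 0.0681). Among 4 genes of iron storage and release, NCOA4, which delivers ferritin to the lysosome, rose (39.0 to 56.4 CPM, log2 fold change 0.53, adjusted p = 0.0250), a call lost without any one library other than siE7 replicate 1 (adjusted p = 0.0755 to 0.103). PCBP1, an iron chaperone that loads ferritin, had a log2 fold change of -0.26 (adjusted p = 0.0912) and HERC2 one of -0.27 (adjusted p = 0.0679). Without siE7 replicate 1, LCN2, PCBP1 and HERC2 were at -0.40, -0.41 and -0.40 and passed (adjusted p = 1.58e-07, 1.14e-07 and 1.52e-07). Under DESeq2 with all libraries, LCN2 and HERC2 also passed (adjusted p = 0.03935 and 0.0417) and PCBP1 did not (0.0617).

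Of 3 tested genes of the export and hepcidin list, HEPHL1, a multicopper ferroxidase, was a DEG (62.0 to 21.9 CPM, log2 fold change -1.50, SE 0.159, adjusted p = 5.49e-05), and HFE (0.29, adjusted p = 0.209) and NEO1 (-0.29, adjusted p = 0.609) did not pass. Of the 3 genes in the list of iron regulatory proteins, which bind hairpins of the kind printed above, 1 narrowly passed. ACO1 (IRP1) had a log2 fold change of -0.32 (adjusted p = 0.0496), a call lost under 10 of 14 alternatives, 5 of them fits that left out a library other than siE7 replicate 1 (adjusted p = 0.106 to 0.175). IREB2 (IRP2) had one of -0.55 (adjusted p = 0.0695), and FBXL5, which marks IRP2 for degradation, one of 0.10 (adjusted p = 0.714). Both passed without siE7 replicate 1 (-0.45 and 0.25, adjusted p = 0.0154 and 0.0323). IREB2 also passed under DESeq2 (adjusted p = 0.0352), RLE factors (0.0440) and no filter (0.0384), and FBXL5 was -0.06 without siE7 replicate 2. Of 18 genes of mitochondrial iron and iron-sulfur clusters 4 rose and none fell. ISCA1, a cluster assembly factor, was a DEG (6.76 to 15.9 CPM, log2 fold change 1.23, SE 0.174, adjusted p = 0.000346), and the chaperone HSPA9 rose as well (0.46, adjusted p = 0.00941). HSPA9 lost its call without siNC replicate 1 or 2 (adjusted p = 0.0583 and 0.0554).

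Of 8 genes for factors that control HMOX1, 1 rose, 1 fell and 6 did not pass. MAFG, a small MAF partner of NRF2 and BACH1, rose (107 to 173 CPM, log2 fold change 0.70, SE 0.122, adjusted p = 0.00130) and MAFF fell (-0.49, adjusted p = 0.0164), a call lost without siNC replicate 1 or 3 (adjusted p = 0.0865 and 0.0590) or siE7 replicate 2 or 3 (0.0668 and 0.0565). KEAP1, which holds NRF2 back, had a log2 fold change of 0.34 (adjusted p = 0.0586), and 0.17 without siE7 replicate 1, where it passed (adjusted p = 0.0479). KEAP1 also passed with upper-quartile factors (0.36, adjusted p = 0.0469), at least 10 counts in every library (0.36, 0.0439) and no composition scaling (0.50, 0.0054). NFE2L2, the gene of NRF2, had one of 0.20 (95% interval -0.26 to 0.65, adjusted p = 0.499), which was 0.37 and passed without siE7 replicate 1 (adjusted p = 0.000807). BACH1 had one of 0.02 (95% interval -0.56 to 0.60, adjusted p = 0.960), with a sign that turned under DESeq2, limma-voom and RLE factors and without 4 of the 6 libraries in turn. NFE2L2, BACH1 and NQO1 were named after their values were seen. Counts of mRNA do not show the amount or place of these proteins.

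Among 16 other NRF2 targets 8 rose, 1 fell and 7 did not pass, with a median log2 fold change of 0.42 against 0.08 over all tested genes. Of all tested genes 18.0% were called higher and 16.0% lower. Like the other lists, this one was chosen with earlier results of these data known. The 2 DEGs were SLC7A11, the cystine carrier (4.52 to 12.9 CPM, log2 fold change 1.51, SE 0.248, adjusted p = 0.000925), and OSGIN1 (12.7 to 35.3 CPM, 1.47, SE 0.220, adjusted p = 0.000497). GCLC, which makes the first step of glutathione synthesis, had a log2 fold change of 0.99 (adjusted p = 0.000334) and glutathione reductase GSR one of 0.91 (adjusted p = 0.000195). NQO1, a quinone reductase often read as an NRF2 marker, fell (466 to 369 CPM, log2 fold change -0.34, adjusted p = 0.0255), a call lost under 7 of 14 alternatives, 5 of them fits that left out a library other than siE7 replicate 1 (adjusted p = 0.0517 to 0.112). The number of targets called was 14 without siE7 replicate 1, of which 9 rose, when 4343 genes of the whole table were called higher and 4422 lower.

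**Figure D5:**
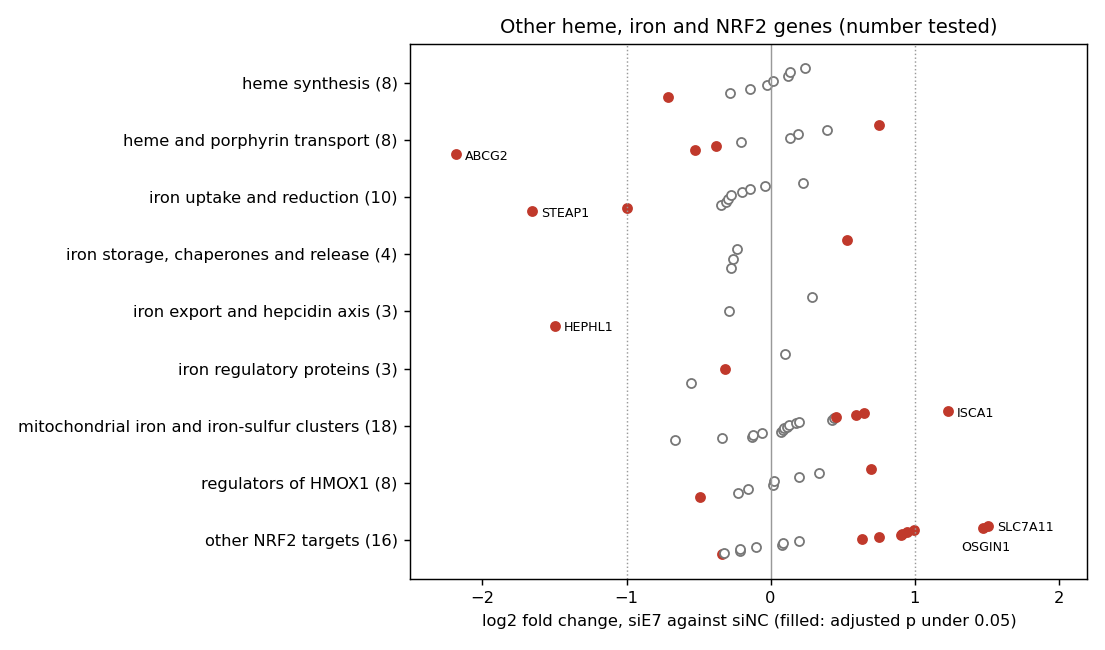
Log2 fold change (siE7 against siNC) of each tested gene of the further lists, 1 row per list with the number tested, filled where the adjusted p was under 0.05, with DEGs named and dotted lines at -1 and 1. ABCG2, STEAP1 and HEPHL1 lie beyond -1 and ISCA1, SLC7A11 and OSGIN1 beyond 1.

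The genes whose profile over the 6 libraries was most like that of HMOX1 were WHRN, TSC22D3, LINC00205, TRABD2B and LCAL1. Their root mean square distances were 0.0867, 0.113, 0.116, 0.118 and 0.122 between mean-centred log2 CPM, with 0.5 added to each CPM. The glucocorticoid-induced TSC22D3 went from 39.0 to 122 CPM (log2 fold change 1.65) and the long noncoding LINC00205 from 17.4 to 53.9 CPM (1.63). WHRN (1.05 to 4.64 CPM, log2 fold change 2.14) and TRABD2B (0.895 to 4.05 CPM, 2.175) were low in both groups, as was LCAL1 (3.25 to 11.9 CPM, 1.865). HMOX1 itself had a log2 fold change of 1.85. The added 0.5 shrinks log2 changes at such low levels, and how far it set which genes were nearest was not tested. None of the 5 is in the heme and iron lists.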

How the data were processed

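RNA sequencing counts of 6 SCC-9 libraries were compared, 3 with siE7 and 3 with siNC, grouped by their titles. The authors deposited whole-number read counts per gene, not normalized, from stranded mRNA libraries. The submitters' processing notes name HISAT2, DESeq2 and GRCh38, and the counting tool and its use of strand are not given in the sources used here. The members and gene lists were chosen with earlier results of these data known.

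Genes kept by filterByExpr (14661 of 25349) were scaled by TMM and tested with edgeR 4.0.16 (R 4.3.3), by the quasi-likelihood F-test with robust dispersions and Benjamini-Hochberg adjustment over all tested genes. A DEG had an adjusted p under 0.05 and a log2 fold change beyond 1. Ratios (0.5 added to each count) were compared by the exact permutation test. The planned ratio of TFRC to SLC40A1 could not be computed, so p-values were adjusted over 3 ratios. RPKM is CPM divided by the canonical transcript length of GENCODE v44, in which 25283 identifiers were matched without version. Total counts ran from 25608192 to 29550264 per library, which limits the precision of low genes.

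Alternatives were DESeq2 1.42.0, limma-voom (limma 3.58.1), RLE or upper-quartile factors or no composition scaling, omission of the filter, at least 10 counts in every library, a replicate block, each library left out, and ferritin copies summed with their parent gene. Named were the members, MKI67, the DEGs and the 3 smallest p-values of each list, and the 5 profiles nearest to HMOX1. Some of these genes are not reported here. On simulated data for this comparison with 200 changed genes, edgeR called 100 of 100 genes changed by 1.5 on the log2 scale and 100 of 100 changed by 2.5, with 12 false calls among 14670 tested. The simulation gave every gene the same dispersion, had no outlying library and changed only well-counted genes. It does not show how changes as small as those of BLVRB and FTH1 are called.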

Additional observations from a re-analysis of the deposited data

How the results depend on the processing

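HMOX1, PIR and HMOX2 kept their direction and their call under all 14 alternatives, with log2 fold changes of 1.69 to 2.02, 1.87 to 2.12 and -1.05 to -0.71, and MKI67 lay between -3.27 and -3.04. BLVRB lost its call only without siNC replicate 3. FTH1 lost it under 8 of 15 alternatives, with DESeq2, RLE factors, no filter, the replicate block and 4 of the libraries left out, with log2 fold changes of 0.22 to 0.49 over all of them. FTL passed the test without composition scaling (0.34, adjusted p = 0.0420). Leaving out a library in turn gave 3 to 5 called members, 9 to 38 called genes of the other heme and iron lists and 8 to 14 called NRF2 targets, the highest of the last 2 without siE7 replicate 1. Deviations of same-numbered libraries from their group means correlated at -0.055, -0.019 and -0.079, and those of differently numbered ones at -0.052 to 0.083. These values showed no pairing by replicate number. Whether same-numbered libraries shared a culture or batch was not tested. With the replicate block 4 members were called in place of 5, as FTH1 (log2 fold change 0.33) had an adjusted p of 0.0779. Signs turned for FTL without siE7 replicate 1 (-0.052, against 0.287 at most with another library left out), for TFRC without composition scaling (0.145) and without siE7 replicate 1 (0.038, against -0.11 at the lowest), and for FBXL5 without siE7 replicate 2 (-0.065, against 0.245 at most). BACH1 turned under DESeq2 (-0.043), limma-voom (-0.0007) and RLE factors (-0.033), and ranged from -0.146 to 0.222 with a library left out. None of these turned values passed the test. The cause of these shifts was not tested. The ratios ranged from 0.06 to 0.27 for FTH1 to FTL, 2.68 to 2.79 for HMOX1 to HMOX2 and -0.52 to -0.34 for BLVRA to BLVRB. SLC11A2 and HMOX1 had the fewest counts of the members, which limits what could be seen for them.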
